A study of Mus musculus with 9 samples.

Results

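The keratin family comprises the genes for the intermediate filament proteins of epithelial cells. Its members were taken as every gene of the count table whose symbol is Krt followed by a number and, in some, a letter, with keratin-associated protein genes and 1 pseudogene left out. This gave 53 of the 35275 genes in the table, 28 of type I (acidic) and 25 of type II (basic). All type II genes and Krt18 lie on chromosome 15, and the other type I genes on chromosome 11.

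A keratin filament is built from pairs of 1 type I and 1 type II protein, so the genes are usually described by their partners. In the mammary gland, Krt8 and Krt18 with Krt19 and Krt7 mark the luminal cells that line the ducts, whereas Krt5 and Krt14 mark the basal cells beneath them. Krt6a, Krt6b and Krt16 are made in wounded or hyperproliferative stratified epithelium, Krt1 and Krt10 in the differentiating layers of skin, and a further set in the hair shaft and its root sheath.

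RNA sequencing of 9 mammary gland tumors was analyzed, all of genotype Brca1Co/Co;MMTV-Cre;p53+/-, with 3 tumors in each of 3 groups. Mice received saline, free Talazoparib given i.v. at 0.33 mg/kg (i.v. TLZ) or its nano-liposome form at the same dose and route (NanoTLZ) for 5 doses at 3 doses a week. Talazoparib inhibits the poly-ADP-ribose polymerases. The saline group carried the same alleles as the treated groups: a conditional Brca1 allele that is deleted where the mammary tumor virus promoter drives Cre, chiefly in mammary epithelium, and 1 lost copy of p53. No tumor with intact Brca1 was analyzed here. Ages and the epithelial content of the samples were not given in the sources used here, and p-values measure only the spread between these samples.

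Library totals ran from 17538380 to 21194980 counts, of which keratins took 0.3% to 0.86%. Tumor numbers only name the samples. Saline tumor 3 stood apart from the rest before any test: it had the highest level of 25.7% and the lowest level of 24.4% of the 15821 genes tested, against at most 16.6% and 15.9% in any other tumor. Values without it are therefore given beside the results that it changed. The epithelial markers Epcam and Cdh1 were detected in all tumors. Epcam, an epithelial adhesion molecule, was between 604 and 1370 CPM (counts per 1000000 counts of the library). Cdh1, E-cadherin, was between 359 and 1060 CPM.

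Promoter sequences are shown for the type II gene whose level varied most between tumors, Krt5, for Krt79, which was high in the same tumor, and for the luminal pair Krt8 and Krt18, which every tumor expressed. They are RefSeq reference sequence of GRCm38.p6, 5′ to 3′ on the strand of the gene and ending at the base before the RefSeq start or, for Krt8 and Krt18, before the longest annotated transcript. Krt5 is at chr15:101712906-101713155 on the minus strand, Krt79 at chr15:101940325-101940574 (minus), Krt8 at chr15:102004483-102004592 (minus) and Krt18 at chr15:102027966-102028179 (plus). Capitals mark the only match to the p53 family motif (1 of the 2 copies that make up a full site), bound by p53 and by the basal cell factor p63. It starts at position -95 of Krt5, counted back from -1 at the last base printed.
Krt5: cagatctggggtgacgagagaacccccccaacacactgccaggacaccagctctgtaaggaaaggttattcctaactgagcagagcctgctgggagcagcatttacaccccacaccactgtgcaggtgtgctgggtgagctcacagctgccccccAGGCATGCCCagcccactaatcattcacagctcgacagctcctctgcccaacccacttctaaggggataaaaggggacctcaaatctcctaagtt
Krt79: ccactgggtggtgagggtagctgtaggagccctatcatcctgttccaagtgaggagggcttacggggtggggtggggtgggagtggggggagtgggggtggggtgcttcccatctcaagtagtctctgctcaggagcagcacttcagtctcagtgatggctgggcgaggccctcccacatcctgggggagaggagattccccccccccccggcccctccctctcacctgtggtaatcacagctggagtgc
Krt8: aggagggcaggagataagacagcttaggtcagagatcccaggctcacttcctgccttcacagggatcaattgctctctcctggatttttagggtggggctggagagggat
Krt18: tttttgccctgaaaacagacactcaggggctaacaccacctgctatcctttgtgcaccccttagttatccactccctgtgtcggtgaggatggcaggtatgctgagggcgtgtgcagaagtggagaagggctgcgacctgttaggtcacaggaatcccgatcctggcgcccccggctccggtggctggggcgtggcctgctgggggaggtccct
Of the 53 keratins, 36 had promoters in the RefSeq table, 37 in all, with Krt6a, Krt6b, Krt15, Krt16, Krt17 and Krt19 among those without an entry. The only window listed for Krt14 lay inside the gene and was not printed, but it is among the 37 counted here. On either strand of the 250 bases before the start, this motif was present in 3 of the 37 keratin promoters (8.11%) and in 7.13% of all 32851 promoters. The TATA box sequence TATAAA was present in 17 keratin promoters (45.9%) against 12.4% of all promoters. CCAAT was present in 15 (40.5% against 33.8%), the GC box GGGCGG in 2 (5.41% against 32.7%) and the AP-1 motif TGANTCA in 2 (5.41% against 6.75%). None of these 4 was in the windows printed here, and these matches are descriptions of sequence only.

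The family was expressed very unevenly. Of the 53 keratins, 21 passed the filter on low counts and were tested: all 4 basal keratins, 5 of 6 simple and luminal, 8 of 16 squamous and wound, 0 of 22 hair and root sheath keratins, and 4 of the 5 that fall in none of these groups. Of the other 32, 4 had 0 counts in every tumor (Krt2, Krt32, Krt33a and Krt33b) and 13, those 4 included, never had over 3 counts. A count of 0 allows a level of up to 0.138 to 0.172 CPM, depending on the tumor, and covers counting error only. In bulk tumors, fewer cells of a type and less RNA per cell cannot be told apart.

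Levels of different genes were compared as TPM, counts divided by merged exon length and scaled to a sum of 1000000 per tumor. By the mean over 9 tumors, Krt8 (2387 TPM) and Krt18 (2219 TPM) were highest, followed by Krt14 (1888 TPM), Krt19 (585 TPM), Krt17 (420 TPM), Krt7 (377 TPM), Krt6a (351 TPM) and Krt5 (327 TPM). The mean of Krt5 came almost wholly from saline tumor 3, at 2770 TPM, with 3.33 to 114 TPM in the other 8 tumors. The Krt7 position depended on the length used, as its merged exons (7049 bases) exceed its longest transcript (4094 bases). With longest transcripts it was at 494 TPM, above Krt17 at 317 TPM.

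Simple and luminal keratins made up 67.7% of the summed keratin TPM in the median tumor, basal keratins 26.5%, squamous and wound keratins 5.5% and hair and root sheath keratins 0.0258%. In the plot of shares, 3 tumors depart from this composition. In saline tumor 3 the basal share was 56.9% and the luminal share 33.8%. I.v. TLZ tumor 1 had 42.8% basal, 40.8% luminal and 16.1% squamous keratins. I.v. TLZ tumor 2 was the reverse, with 93.2% luminal, 5.97% basal and 0.738% squamous. The basal share was 24.3% ± 18.4 (SD, n = 3) with i.v. TLZ, 34.5% ± 19.8 with saline and 27.0% ± 1.34 with NanoTLZ, so the spread within the first 2 groups exceeded the differences between the means.

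**Figure D1:**
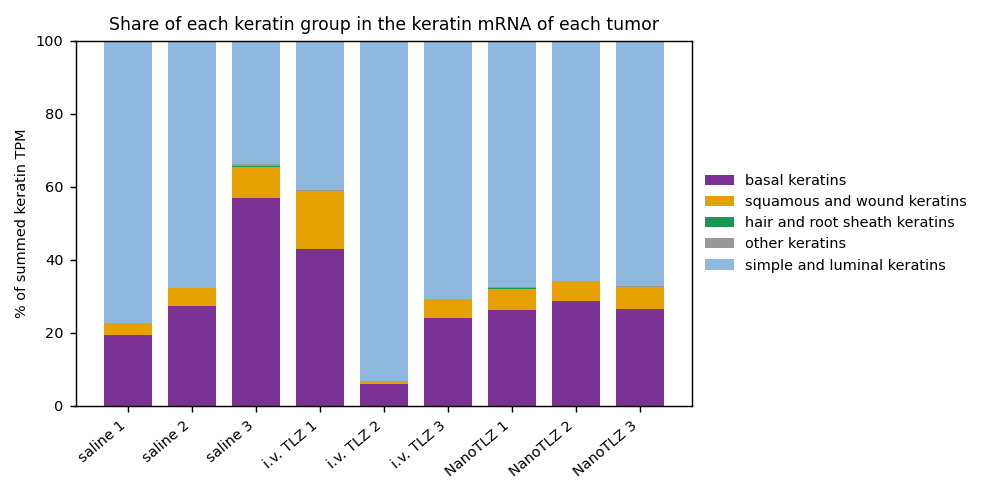
Share (%) of the summed keratin TPM (merged exons) taken by each keratin group, with 1 stacked bar per tumor. Saline tumor 3 and i.v. TLZ tumor 1 have basal shares of 56.9% and 42.8%, i.v. TLZ tumor 2 has 5.97%, and the 3 NanoTLZ tumors lie between 26.1% and 28.6%.

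The luminal pair was high in every tumor. Krt8 was measured at 2623, 1059 and 955 CPM in saline tumors 1 to 3, at 1158, 1608 and 1821 CPM with i.v. TLZ, and at 1360, 1318 and 738 CPM with NanoTLZ. Its type I partner Krt18 was at 1579, 613 and 646 CPM with saline, 564, 1867 and 898 CPM with i.v. TLZ, and 1092, 893 and 499 CPM with NanoTLZ. The 3 groups overlapped for both genes. Per length, Krt18 stood at 0.663 to 1.58 times Krt8, with the highest ratio in i.v. TLZ tumor 2.

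Krt19, which marks luminal cells and their progenitors, was at 702, 351 and 31.2 CPM with saline, 596, 352 and 300 CPM with i.v. TLZ, and 196, 251 and 173 CPM with NanoTLZ. Krt7, a type II keratin of ductal epithelium, was at 968, 540 and 76.3 CPM, 1704, 1136 and 660 CPM, and 923, 665 and 552 CPM in the same order. Both genes were lowest in saline tumor 3, and the i.v. TLZ and NanoTLZ values of Krt19 did not overlap. Krt23, a type I keratin of glandular epithelium, was at 63.0, 64.3 and 194 CPM, 64.7, 19.7 and 9.09 CPM, and 26.3, 66.4 and 69.3 CPM, with its highest value in that same saline tumor. Krt20, a keratin of intestinal epithelium and the only untested gene of this group, never exceeded 12 counts.

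Of the basal keratins, Krt14 was abundant and Krt5 was not, except in 1 tumor. Krt14 was at 1228, 752 and 802 CPM with saline, 2584, 122 and 842 CPM with i.v. TLZ, and 1015, 1091 and 554 CPM with NanoTLZ. Krt5, its type II partner, was at 4.86, 3.15 and 1849 CPM with saline, 7.47, 2.30 and 72.9 CPM with i.v. TLZ, and 11.7, 9.66 and 2.33 CPM with NanoTLZ. Saline tumor 3 therefore held 25.4 times the Krt5 of the next tumor, while its Krt14 was near the middle of the series. Per length, Krt14 stood at 14.4 to 433 times Krt5 in the other 8 tumors and at 0.542 times Krt5 in saline tumor 3.

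Krt15, a type I keratin of basal and hair follicle stem cells, had the same outlying tumor. It was at 4.23, 4.19 and 152 CPM with saline, 1.99, 1.09 and 0.703 CPM with i.v. TLZ, and 1.97, 0.873 and 3.05 CPM with NanoTLZ. All 6 treated tumors lay below all 3 saline tumors, and saline tumor 3 held 35.9 times the next highest value. Krt17, a type I keratin of basal and wounded epithelium, was at 74.4, 124 and 693 CPM with saline, 301, 136 and 163 CPM with i.v. TLZ, and 115, 84.6 and 81.0 CPM with NanoTLZ. Its i.v. TLZ and NanoTLZ values did not overlap.

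**Figure D2:**
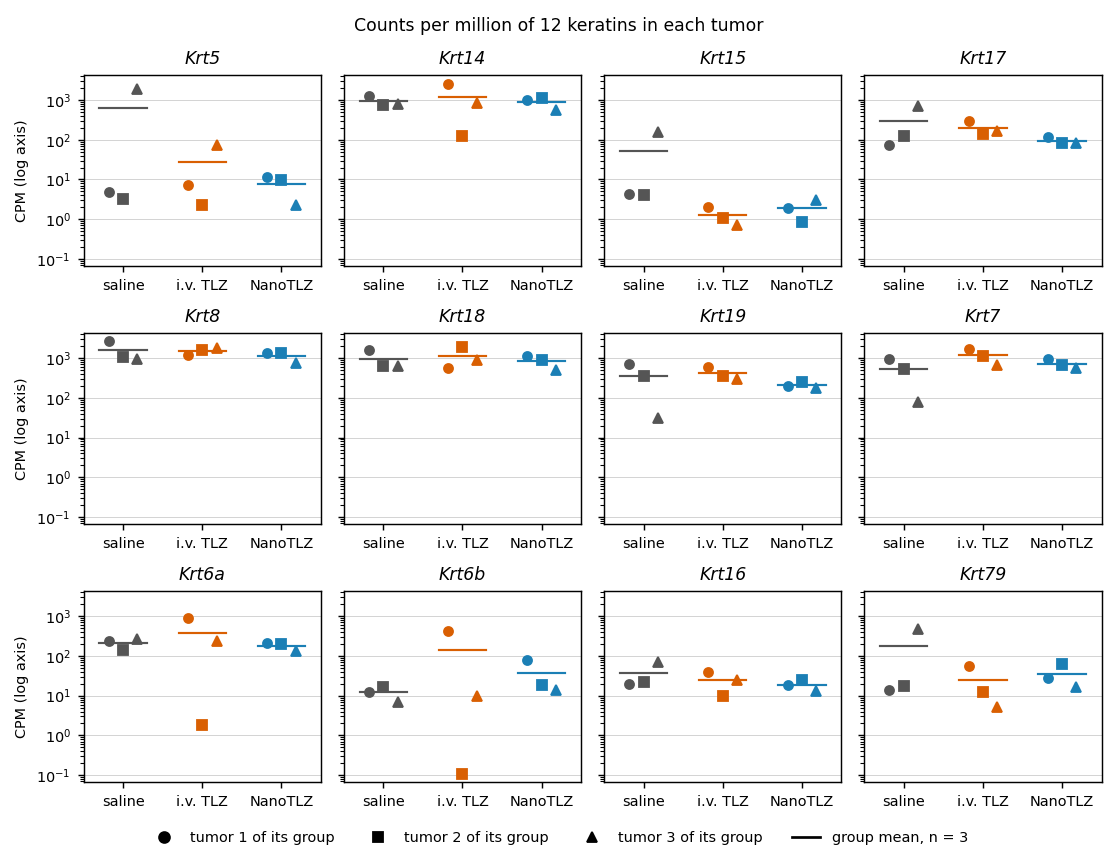
CPM (log axis) of 12 keratins in each tumor of the 3 groups, with 1 marker per tumor and a line at the group mean (n = 3). Saline tumor 3 (triangle) lies far above the other tumors for Krt5, Krt15 and Krt79 and below them for Krt7 and Krt19, and i.v. TLZ tumor 2 (square) has the lowest Krt6a and Krt6b, at 1.86 and 0.109 CPM.

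Among squamous and wound keratins, the wound keratins Krt6a and Krt6b differed most between 2 tumors of the i.v. TLZ group. Krt6a was at 237, 137 and 265 CPM with saline, 894, 1.86 and 233 CPM with i.v. TLZ, and 207, 199 and 134 CPM with NanoTLZ. Krt6b was at 12.3, 16.9 and 7.11 CPM, 416, 0.109 and 9.58 CPM, and 77.9, 18.2 and 14.2 CPM in the same order. I.v. TLZ tumor 1 was thus highest and i.v. TLZ tumor 2 lowest for both, the latter with 34 counts of Krt6a and 2 of Krt6b against 18437 and 8582 in the former. Krt16 spread less, at 19.3, 22.7 and 71.0 CPM, 40.4, 9.84 and 24.8 CPM, and 19.0, 24.8 and 13.1 CPM.

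Krt79, a type II keratin of hair canal and sebaceous duct cells, was at 13.5, 17.7 and 486 CPM with saline, 55.2, 12.3 and 5.19 CPM with i.v. TLZ, and 27.5, 61.1 and 16.2 CPM with NanoTLZ. Krt80, a type II keratin found in many epithelia, was at 25.6, 18.2 and 50.7 CPM, 169, 40.8 and 46.9 CPM, and 32.5, 15.2 and 25.0 CPM, and all i.v. TLZ tumors lay above all NanoTLZ tumors. The skin differentiation pair was low in all 9 tumors. Krt10 was at 6.47, 14.1 and 10.1 CPM, 12.9, 6.23 and 5.14 CPM, and 11.2, 19.4 and 11.7 CPM, and Krt1 was at 13, 10 and 2 counts, 12, 5 and 3 counts, and 2, 12 and 3 counts. The mucosal keratins were also near the floor: Krt13 had 1 to 4 counts in each tumor, and its type II partner Krt4 had 35 counts in saline tumor 3 and 0 to 4 counts elsewhere.

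Hair and root sheath keratins were at or near 0 apart from saline tumor 3. There, Krt71, a type II keratin of the inner root sheath, had 492 counts, against 2, 2, 2, 3, 8, 5, 4 and 0 counts in the other tumors. Krt73, of the root sheath cuticle, had 33 counts there and 0 or 1 elsewhere. The type I root sheath keratin Krt27 had 5, 2 and 1 counts with saline, 5, 0 and 9 with i.v. TLZ, and 34, 8 and 7 with NanoTLZ, and the hair shaft keratin Krt83 had 0, 2 and 1, 8, 0 and 2, and 10, 1 and 8 counts. None of the 22 passed the filter on low counts, so they have no test in the main fit.

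In all, 4 members outside these groups were tested. Krt42, a type I keratin of nail, was at 0.744, 1.38 and 18.4 CPM with saline, 5.14, 1.04 and 1.08 CPM with i.v. TLZ, and 5.25, 1.31 and 2.12 CPM with NanoTLZ. The type II genes that lie beside the hair keratins on chromosome 15 were low: Krt87 was at 2.92, 2.05 and 4.91 CPM, 14.6, 3.77 and 5.14 CPM, and 7.03, 2.73 and 3.57 CPM. Krt88 had 8, 12 and 0 counts, 34, 16 and 16 counts, and 19, 18 and 18 counts, so that all treated tumors lay above all saline tumors. Krt90 had 0, 0 and 25 counts with saline, 23, 5 and 23 with i.v. TLZ, and 12, 4 and 6 with NanoTLZ. Krt222, also in none of the groups, never exceeded 10 counts.

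**Figure D3:**
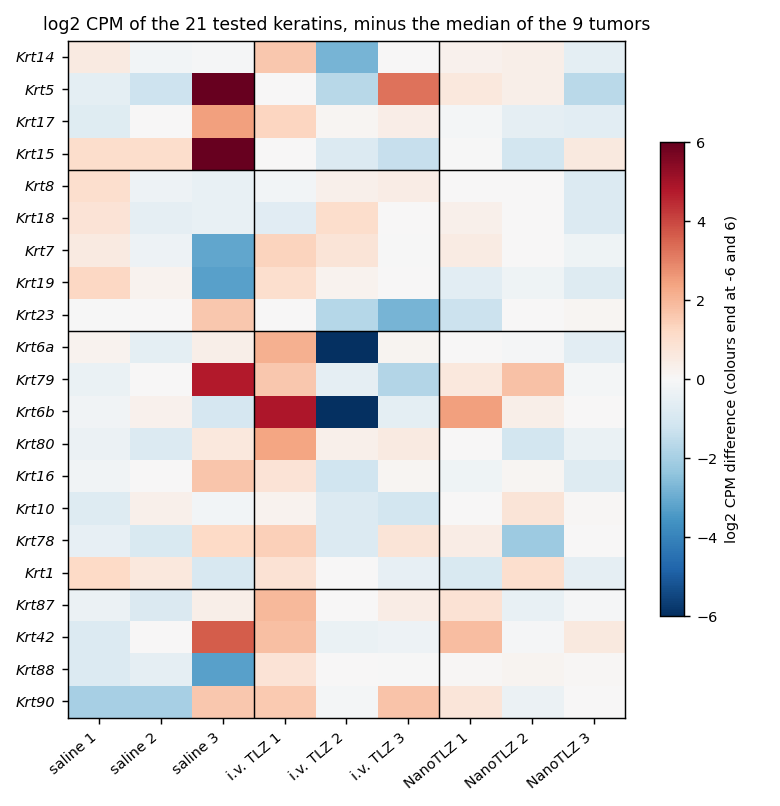
Log2 CPM of the 21 tested keratins (rows, by keratin group) in the 9 tumors (columns), each shown as the difference from that gene's median over the tumors, with red above and blue below. The strongest colours fall in saline tumor 3 for Krt5, Krt15 and Krt79, in i.v. TLZ tumor 2 for Krt6a, and in i.v. TLZ tumors 1 and 2 for Krt6b.

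The spread within groups was larger for keratins than for most genes. The SD of log2 CPM within groups had a median of 1.2 over the 21 tested keratins and 0.53 over all tested genes. Krt5 (3.37), Krt6b (3.27), Krt6a (2.70), Krt79 (2.01) and Krt15 (1.83) varied most, whereas Krt8 (0.58), Krt10 (0.57) and Krt18 (0.75) varied about as much as many other genes. Saline tumor 3 had the highest level of 7 of the 21 keratins (Krt5, Krt15, Krt16, Krt17, Krt23, Krt42 and Krt79) and of 25.7% of all tested genes. I.v. TLZ tumor 1 was highest for 8 (Krt6a, Krt6b, Krt7, Krt14, Krt78, Krt80, Krt87 and Krt88) and for 10.7% of all tested genes. I.v. TLZ tumor 2 was lowest for 5 (Krt5, Krt6a, Krt6b, Krt14 and Krt16) and for 14.8% of all tested genes.

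Some of the keratins that were high in saline tumor 3 are neighbors in the genome. Counting all 53 members, 12 were over 3 counts there and at least 2 times their level in every other tumor, 6 of them tested, and 5.35% of tested genes met the same criterion. Of the 12, 5 lie between Krt5 and Krt79 in the type II cluster, 6 (Krt15, Krt17, Krt23, Krt28, Krt40 and Krt42) on chromosome 11 among the type I genes, and Krt84 on chromosome 15 outside that stretch. Krt5 (chr15:101707070-101712898), Krt71, Krt73, Krt4 and Krt79 (chr15:101929332-101940324) lie on the same strand. Krt2, with 0 counts in every tumor, and Krt1, Krt72, Krt76 and Krt77, with at most 2 counts each in this tumor, lie among them. At so few counts these genes say little about the stretch, and whether it was raised as a whole was not tested. All 53 members lie on chromosomes 11 and 15, so neighbors in such a list are no test of position. Krt6a beside Krt5, at 265 CPM, and Krt8 beyond Krt79 were within the range of the other tumors.

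Partner keratins were next compared across the 9 tumors as log2 CPM, with exact two-sided permutation tests and Benjamini-Hochberg adjustment over the 4 pairs. Krt8 and Krt18 varied together, with Pearson's r of 0.818 (p = 0.00625, adjusted p = 0.025) and Spearman's rho of 0.85 (p = 0.00607, adjusted p = 0.0243). Without the 2 tumors farthest from the median of Krt8, r was 0.7. The adjusted permutation p did not pass 0.05 when saline tumor 1 (0.104), saline tumor 2 (0.0609), NanoTLZ tumor 2 (0.05) or NanoTLZ tumor 3 (0.102) was left out, with r between 0.764 and 0.818. Krt5 and Krt14 gave r of 0.201 (p = 0.494, adjusted p = 0.508) and rho of 0.433 (p = 0.25, adjusted p = 0.333), also by exact permutation. Without saline tumor 3 and i.v. TLZ tumor 3, the farthest on Krt5, r was 0.687, so the low value rests on those tumors. It was -0.106 without i.v. TLZ tumor 2.

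Krt6a and Krt16 gave r of 0.674 (p = 0.0711, adjusted p = 0.142) and rho of 0.767 (p = 0.0214, adjusted p = 0.0428) by the same permutation test, and r was 0.627 without i.v. TLZ tumors 1 and 2. Without saline tumor 3, r was 0.836 (adjusted permutation p = 0.0182). Krt1 and Krt10, at few counts, gave r of 0.25 (p = 0.508, adjusted p = 0.508), rho of 0.283 (p = 0.463, adjusted p = 0.463) and r of 0.314 without the 2 farthest tumors. The summed type II TPM stood at 0.581 to 0.962 times the summed type I TPM, highest in saline tumor 3. On the log2 scale, the TPM ratio of Krt5 and Krt14 to Krt8 and Krt18 was -1.80, -1.17 and 0.47 with saline, 0.58, -4.91 and -1.60 with i.v. TLZ, and -1.32, -1.05 and -1.20 with NanoTLZ. Both treated groups thus overlapped the saline group on this axis.

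**Figure D4:**
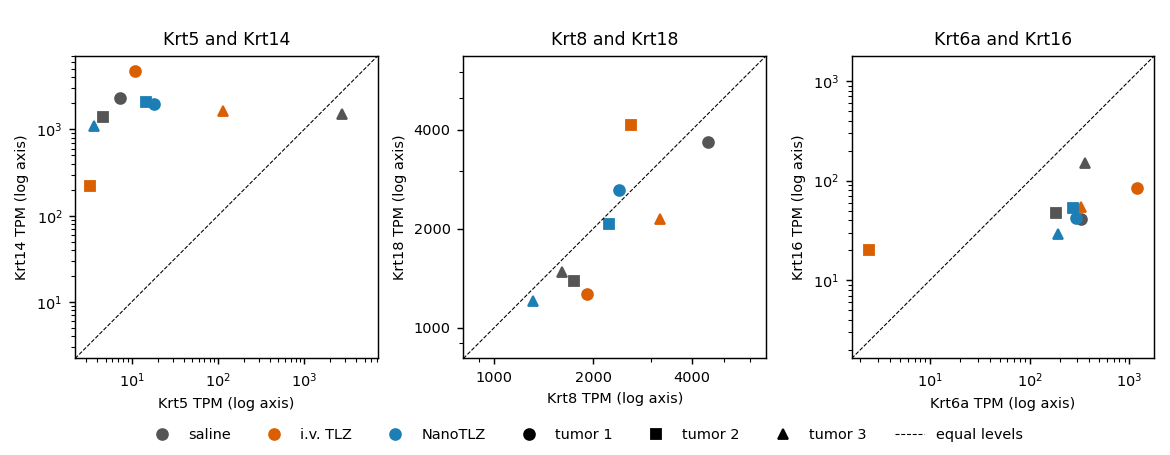
TPM (merged exons, log axes) of the type II keratins Krt5, Krt8 and Krt6a against their type I partners Krt14, Krt18 and Krt16, with 1 marker per tumor, and a dashed line at equal levels. Krt8 and Krt18 follow the line within ratios of 0.663 to 1.58, whereas Krt14 lies 14.4 to 433 times above Krt5 in 8 tumors and below it in saline tumor 3.

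The first comparison asked how free i.v. TLZ changed the tumors against saline. No keratin of 21 was called by edgeR's quasi-likelihood test at an adjusted p under 0.05, against 0.0% of all 15821 genes. At an unadjusted p under 0.05, 3 of 21 keratins passed, against 10.4% of all genes. Krt15 was lower (log2 fold change -5.39, SE 1.41, edgeR adjusted p = 0.417) and Krt23 was lower (-1.78, SE 0.73, edgeR adjusted p = 0.454). Krt80 was higher (1.44, SE 0.60, edgeR adjusted p = 0.458), but stood at 0.48 without i.v. TLZ tumor 1 (edgeR adjusted p = 0.825), where it no longer passed. Groups did not overlap for 2 of 21, Krt15 and Krt88, against 11.2% of all genes; for Krt88 the log2 fold change was 1.71 (SE 0.91, edgeR adjusted p = 0.531).

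For the main basal and luminal keratins, the log2 fold changes of i.v. TLZ over saline were -4.49 for Krt5 (SE 2.15, edgeR adjusted p = 0.497), 0.35 for Krt14 (SE 0.79, edgeR adjusted p = 0.898), -0.016 for Krt8 (SE 0.46, edgeR adjusted p = 0.992) and 0.23 for Krt18 (SE 0.54, edgeR adjusted p = 0.903). DESeq2, which fitted 49 keratins, called 0, with 4 at an unadjusted p under 0.05 (Krt23, Krt73, Krt80 and Krt87) against 7.97% of all genes. It gave no p for Krt5, Krt6b, Krt15, Krt71 and Krt79 because of outlying counts, in this and in each comparison below, and no adjusted p for 25 of the 49, so those could not be called. Without saline tumor 3, Krt5 turned to 2.79 (SE 1.32, edgeR adjusted p = 0.551), Krt15 stood at -1.72 (SE 0.64, edgeR adjusted p = 0.496), Krt23 at -1.03 (edgeR adjusted p = 0.663) and Krt88 at 1.13 (edgeR adjusted p = 0.585). There, 5 of 21 keratins passed an unadjusted p under 0.05, against 9.54% of all genes: Krt15 lower, and Krt17, Krt80, Krt87 and Krt90 higher. In that fit both saline tumors had 0 counts of Krt90, so no fold change is given.

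The same question was asked of NanoTLZ. Again 0 of 21 keratins were called by edgeR after adjustment, against 0.00632% of all genes, and DESeq2 called 0 of the 17 of 49 keratins to which it gave an adjusted p, which did not include Krt5 or Krt15. Of the 49, 2 (Krt17 and Krt27) had an unadjusted p under 0.05 in DESeq2, against 7.15% of all genes. At an unadjusted p under 0.05, 3 of 21 passed, against 8.99% of all genes, and all 3 were basal keratins with lower values (5.49% of all genes passed as lower): Krt15 (log2 fold change -4.76, SE 1.36, edgeR adjusted p = 0.552), Krt5 (-6.29, SE 2.34, edgeR adjusted p = 0.552) and Krt17 (-1.67, SE 0.72, edgeR adjusted p = 0.552). None of these 3 passed the unadjusted threshold without saline tumor 3, where the log2 fold changes were -1.07 for Krt15 (edgeR adjusted p = 0.772), 1.01 for Krt5 (edgeR adjusted p = 0.87) and -0.061 for Krt17 (edgeR adjusted p = 0.981).

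Groups did not overlap for Krt15 and for Krt88 (1.45, SE 0.91, edgeR adjusted p = 0.622), or 2 of 21, against 15.9% of all genes. Krt14 stood at -0.064 (SE 0.79, edgeR adjusted p = 0.986), Krt8 at -0.44 (SE 0.46, edgeR adjusted p = 0.771) and Krt18 at -0.19 (SE 0.54, edgeR adjusted p = 0.929). Without saline tumor 3, 2 of 21 passed an unadjusted p under 0.05, against 6.66% of all genes. These were Krt19, lower at -1.32 (SE 0.40, edgeR adjusted p = 0.639), and Krt90.

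NanoTLZ was then compared with i.v. TLZ at the same dose, which involves no saline tumor. Of 21 keratins, 0 were called by edgeR after adjustment, against 0.0% of all genes, and DESeq2 called 0 of 49, with 1 (Krt80) at an unadjusted p under 0.05 against 1.71% of all genes and 5 without a p. In edgeR, Krt80 alone passed an unadjusted p under 0.05, against 1.68% of all genes, and was lower with NanoTLZ, as was 1.23% of all genes (log2 fold change -1.82, SE 0.60, edgeR adjusted p = 0.9999). Without i.v. TLZ tumor 1 its log2 fold change was -0.85, and it no longer passed the unadjusted threshold. Groups did not overlap for 3 of 21, against 7.61% of all genes. These were Krt80, Krt17 (log2 fold change -1.10, SE 0.71) and Krt19 (-1.01, SE 0.78), both with an edgeR adjusted p of 0.9999, each lower with NanoTLZ, as were 4.41% of all genes. When saline tumor 3 was left out of the shared estimate of spread, Krt17 (-1.08) and Krt19 (-0.99) passed the unadjusted threshold as well (edgeR adjusted p = 0.9994 for both), against 2.94% of all genes.

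Last, both treated groups were averaged and compared with saline, which shares its tumors with the comparisons above. Of 21 keratins, 0 were called by edgeR after adjustment, against 0.019% of all genes, and DESeq2 called 0 of the 24 of 49 keratins to which it gave an adjusted p, with 3 (Krt23, Krt73 and Krt88) at an unadjusted p under 0.05 against 9.67% of all genes. At an unadjusted p under 0.05, 4 of 21 passed, against 13.1% of all genes, and all 4 were lower, as were 8.29% of all genes. Krt15 stood at -5.08 on the log2 scale (SE 1.04, edgeR adjusted p = 0.215), Krt5 at -5.39 (SE 1.67, edgeR adjusted p = 0.284), Krt79 at -2.57 (SE 1.05, edgeR adjusted p = 0.357) and Krt23 at -1.39 (SE 0.59, edgeR adjusted p = 0.364).

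Without saline tumor 3, Krt5 turned to 1.90 (95% confidence interval -0.79 to 4.60) and Krt79 to 0.91 (-0.94 to 2.76), while Krt23 stood at -0.62 and Krt15 at -1.40 (-2.61 to -0.18, edgeR adjusted p = 0.497). There, 3 of 21 passed an unadjusted p under 0.05, against 9.27% of all genes: Krt15, Krt19 (-0.82, edgeR adjusted p = 0.524) and Krt90. With all tumors, groups did not overlap for Krt15 and Krt88 (1.58, SE 0.83, edgeR adjusted p = 0.435), 2 of 21 against 5.47% of all genes. Krt14 stood at 0.14 (95% confidence interval -1.39 to 1.68), Krt8 at -0.23 (-1.10 to 0.65) and Krt18 at 0.019 (-1.03 to 1.07), with edgeR adjusted p-values of 0.948, 0.828 and 0.993. The median log2 fold change over the 21 keratins was 0.010, beside -0.055 over all tested genes, with 11 of 21 above 0. The median was 0.48 without saline tumor 3, beside 0.032 over all tested genes, with 15 of 21 above 0.

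**Figure D5:**
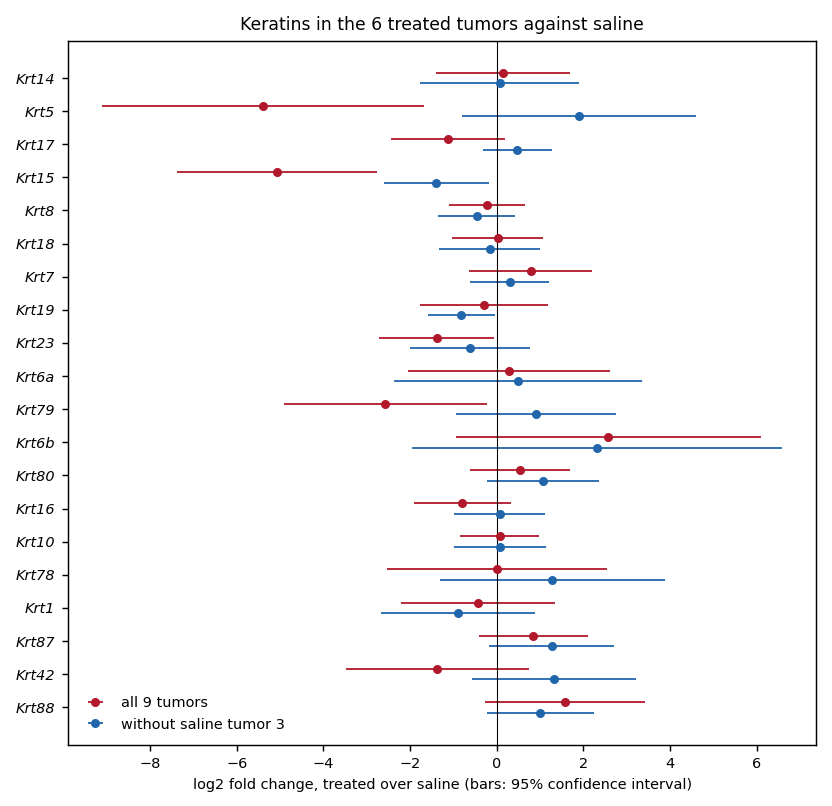
Log2 fold changes of the treated tumors over saline (x axis) for 20 tested keratins with 95% confidence intervals, fitted on all 9 tumors (red) and without saline tumor 3 (blue). Krt90 is not drawn because both remaining saline tumors have 0 counts. Krt5 moves from -5.39 to 1.90 and Krt79 from -2.57 to 0.91, whereas Krt8 goes from -0.23 to -0.46 and Krt14 from 0.14 to 0.067.

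Genes that anchor keratin filaments were read beside the family. Of 12 tested desmosome and plakin genes, 0 were called by edgeR in any of the 4 comparisons. At an unadjusted p under 0.05 for treated over saline, 2 passed, both lower, beside 8.29% of all genes. Without saline tumor 3, 1 passed as lower, beside 4.87% of all genes. The smallest p was for Perp, a desmosomal membrane protein, with a log2 fold change of -2.09 (SE 0.54, edgeR adjusted p = 0.277) and -0.56 without saline tumor 3. Perp was at 705 CPM in that tumor and 36.0 to 115 CPM elsewhere. Dsc3, a desmosomal cadherin of basal layers, was at 33.1 CPM there and 0 to 0.218 CPM elsewhere.

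Of 8 hemidesmosome and laminin genes, which tie keratins to the basement membrane, 0 were called by edgeR. For treated over saline, 0 passed an unadjusted p under 0.05. For i.v. TLZ over saline, 2 passed as higher, beside 4.91% of all genes, or 1 without saline tumor 3, beside 5.35%. The smallest p for treated over saline was for Col17a1, a hemidesmosomal collagen (-2.55, SE 1.21, edgeR adjusted p = 0.401), which turned to 1.70 without saline tumor 3 (edgeR adjusted p = 0.616). It was at 314 CPM in saline tumor 3 and 79.9 CPM in i.v. TLZ tumor 3. These were also the highest and next highest tumors for Krt5.

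Of 8 basal and myoepithelial cell markers, 0 were called by edgeR and 2 passed an unadjusted p under 0.05 for treated over saline. Both were lower, as were 8.29% of all genes, and 0 markers passed without saline tumor 3. The smallest p was for Cdh3, P-cadherin (-3.57, SE 0.97, edgeR adjusted p = 0.282), which stood at -0.79 without that tumor (edgeR adjusted p = 0.753). It was at 125 CPM in saline tumor 3 and 0.953 to 12.8 CPM elsewhere. Trp63, which encodes p63, was at 131 CPM in saline tumor 3 and 1.91 to 28.5 CPM elsewhere. Oxtr, of the same list, was at 79.3 CPM there and 0.866 to 19.5 CPM elsewhere. The contractile markers Acta2, Myh11, Tagln and Mylk were within the range of other tumors there, and Cnn1 was lowest. The summed level of the 8 markers was 518 CPM in that tumor and 89.4 to 387 CPM elsewhere. Of 9 epithelial cell markers, 0 were called by edgeR and 2 passed the unadjusted threshold, both lower, beside 8.29% of all genes. The smallest p was for the transcription factor Ovol1 (-1.17, SE 0.39, edgeR adjusted p = 0.291). In the fit without saline tumor 3, 1 passed (Cldn7, lower), beside 4.87% of all genes, and Ovol1 stood at -0.73 (edgeR adjusted p = 0.586).

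Markers of skin, which also makes keratins, were read in the same tumors. Of 16 cornified envelope genes in the table, 5 were tested, 0 were called and 0 passed the unadjusted threshold for treated over saline by edgeR, where Lor had the smallest p (2.12, SE 1.32, adjusted p = 0.502). When saline tumor 3 was left out, 1 of 5 passed (Sprr1a, higher), beside 4.4% of all genes, and Lor stood at 3.30 (edgeR adjusted p = 0.569). Their summed level was 83.3 CPM in saline tumor 3 and 39.8 to 122 CPM elsewhere, and Hrnr and Sprr3 were at 0 in every tumor. The untested Ivl and Krtdap were at 1.42 and 1.33 CPM in saline tumor 3, against at most 0.0517 and 0.219 CPM elsewhere. Cnfn, also untested, was highest in i.v. TLZ tumor 1, at 4.61 CPM. Lor, loricrin, was at 20.6 CPM in i.v. TLZ tumor 2 and at most 1.06 CPM elsewhere. Of 12 skin and hair follicle markers, 6 were tested, 0 were called and 0 passed, with the smallest p for S100a3 (-1.55, SE 0.81, edgeR adjusted p = 0.437), which turned to 0.77 without saline tumor 3 (edgeR adjusted p = 0.713). Their summed level was 32.9 CPM in saline tumor 3 and 11.7 to 47.7 CPM elsewhere, with Tyrp1, Dct and Tchhl1 at or near 0 in all tumors. S100a3, a hair cuticle protein, was at 14.8 CPM in saline tumor 3 and at most 4.81 CPM elsewhere. The untested Msx2 was at 1.15 CPM there and at most 0.289 CPM elsewhere. Tchh was lowest there, at 0.0918 CPM, against 4.2 to 37.1 CPM elsewhere.

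Of the markers of other cells, the muscle and proliferation sums were highest in saline tumor 3, and the leukocyte and fibroblast sums were within range. The summed level of 8 skeletal muscle markers was 535 CPM there and 6.72 to 175 CPM elsewhere, and that of 10 proliferation genes was 2130 CPM against 270 to 1100 CPM. The summed level of 6 leukocyte markers was 449 CPM there and 326 to 3810 CPM elsewhere, and that of 6 fibroblast markers was 1370 CPM against 950 to 5890 CPM. For treated over saline at an unadjusted p under 0.05, edgeR passed 6 of 8 muscle markers and 9 of 10 proliferation genes as lower. As higher it passed 1 of 5 tested leukocyte and 2 of 6 fibroblast markers. Of all genes, 8.29% passed as lower and 4.8% as higher. Of 2 tested adipocyte markers 0 passed, and these lists had 0 calls after adjustment. When saline tumor 3 was left out, 5 of 8 muscle markers and 3 of 10 proliferation genes (Bub1, Ccna2 and Top2a) passed as lower. This was beside 4.87% of all genes, and 0 leukocyte, fibroblast or adipocyte markers passed. With all tumors, the smallest p-values were for Acta1 (-8.38, edgeR adjusted p = 0.0526), Top2a (-1.55, edgeR adjusted p = 0.0915), Lyz2 (1.65, edgeR adjusted p = 0.329), Pdgfra (1.06, edgeR adjusted p = 0.307) and Plin4 (1.16, edgeR adjusted p = 0.645). Fitted without it, these stood at -6.91 for Acta1 (edgeR adjusted p = 0.126), -1.55 for Top2a (0.165), 1.38 for Lyz2 (0.56), 0.96 for Pdgfra (0.542) and 1.21 for Plin4 (0.777), all by edgeR. The part of skin, muscle and these other cells in the keratin values was not tested.

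Some keratins share sequence or ground with other genes, which limits how firmly their counts can be assigned. Of all 50-base stretches in Krt6a and Krt6b, 45.7% and 50.1% also occur in another gene, mostly in each other. The share was 37.6% for Krt16, mainly with the pseudogene Gm11597, and 36.9% for Krt87, with Gm49425 as the main partner (19.9%). For Krt8 it was 26.9%, with Krt8-ps, and for Krt14 13.9%, mainly with Krt16. It was 8.52% for Krt5, 3.99% for Krt17, 0.72% for Krt18, 0.64% for Krt15 and 0.0% for Krt19, Krt23, Krt79 and Krt80. Krt5, Krt6a, Krt6b, Krt7, Krt8, Krt10, Krt80 and Krt90 overlap a gene on the other strand. For Krt5, Krt6b and Krt90 this is a miRNA gene, and for Krt6a and Krt80 a miRNA gene and an antisense gene. Whether counting used strand was not given in the sources used here.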

How the data were processed

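RNA from flash-frozen tumors was sequenced with standard Illumina libraries. The authors deposited 1 table of raw counts per gene, in 9 columns matched to samples by title. The submitters' processing notes name TopHat2, mm10 and DESeq2, and versions, strand setting, read length and handling of multiply mapped reads were not given in the sources used here. Symbols came from GENCODE M21 (GRCm38) for 34490 of 35275 Ensembl identifiers, leaving 785 without one, so a keratin among those would be missed. The members and gene lists were chosen with earlier results of these data known.

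Counts of all genes were fitted on the 9 tumors with edgeR 4.0.16 (R 4.3.3): filterByExpr (minimum count 10), TMM normalization, the quasi-likelihood test and Benjamini-Hochberg adjustment over 15821 genes. CPM use the TMM-scaled library sizes, and log2 CPM a prior count of 2. TPM use merged exon lengths. Called means an adjusted p under 0.05. Groups that do not overlap were judged on CPM. Correlations were tested by exact permutation (scipy 1.17.1). The fits were tested on simulated data. Alternatives were RLE and upper quartile normalization, no filter, DESeq2 1.42.0, edgeR on the compared groups only, a prior count of 0.5, longest transcripts, and leaving out each tumor.

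Values were given for the 4 marker keratins and 11 others fixed by name, for any tested keratin with an unadjusted p under 0.05 or with treated and saline tumors apart, and for the 3 highest members of each keratin group. Fold changes were given for Krt5, Krt14, Krt8 and Krt18 against saline, and for keratins that passed either criterion. For the 12 other gene lists, counts are given with the member of smallest p. Authors' fold changes were not used.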

Additional observations from a re-analysis of the deposited data

How the results depend on the processing

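No paired analysis was possible because no label ties a tumor to one of another group. No keratin was called by edgeR after adjustment in any comparison with any single tumor left out (0 to 0), nor under RLE or upper quartile normalization. With no filter on low counts Krt15 was called for treated over saline (1 keratin, log2 fold change -5.05, edgeR adjusted p = 0.0343). In the filtered fit it stood at -1.40 without saline tumor 3 (edgeR adjusted p = 0.497). The unfiltered fit was not run without that tumor. At an unadjusted p under 0.05 against saline, 8.66% (i.v. TLZ), 7.83% (NanoTLZ) and 10.8% (treated) of all genes passed in the unfiltered fit. Of the 49 keratins fitted there, 8, 5 and 7 passed in the same order. These include Krt71 in all 3 comparisons, Krt73 for i.v. TLZ and treated, and Krt27 for NanoTLZ. For NanoTLZ over i.v. TLZ on the groups compared only, 3 passed with edgeR (of 20, beside 3.25% of all genes) and 3 with DESeq2 (of 46, beside 2.98%). With each tumor left out in turn, these counts ran from 3 to 5 for i.v. TLZ, 1 to 3 for NanoTLZ, 0 to 3 for NanoTLZ over i.v. TLZ and 2 to 5 for treated. The count for NanoTLZ over i.v. TLZ was 0 without NanoTLZ tumor 2 and 3 without saline tumor 3.

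Log2 fold changes near 0 changed sign. Under upper quartile normalization, Krt8 with i.v. TLZ was 0.071 and Krt14 with NanoTLZ 0.042. With each tumor left out, for i.v. TLZ Krt14 ran from -0.94 to 0.88, Krt5 from -6.97 to 2.79, Krt8 from -0.25 to 0.61 and Krt18 from -0.37 to 0.83. For NanoTLZ, Krt14 ran from -0.21 to 0.22, Krt5 from -6.87 to 1.01, Krt8 from -0.66 to 0.21 and Krt18 from -0.44 to 0.43. For treated over saline, Krt14 ran from -0.50 to 0.42, Krt5 from -6.61 to 1.90, Krt79 from -3.30 to 0.91, Krt8 from -0.46 to 0.41 and Krt18 from -0.28 to 0.63. Only leaving out saline tumor 3 turned Krt5 and Krt79. The correlation ran from 0.764 to 0.903 for Krt8 with Krt18, -0.106 to 0.397 for Krt5 with Krt14, 0.566 to 0.836 for Krt6a with Krt16 and 0.0188 to 0.527 for Krt1 with Krt10. The prior count and longest transcripts moved no correlation or mean basal to luminal ratio beyond its threshold. Of the single-keratin values, 338 kept their direction and side of the threshold, 24 changed direction and 1 newly passed. A further 11 from DESeq2 kept their direction but have no adjusted p. Depth limits most of the 32 keratins left out by the filter, though Krt71 had 492 counts in a single tumor, and 3 tumors a group limit the rest.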

Other observations

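Keratins are the cytoplasmic intermediate filaments of epithelium, and other cells build theirs from other genes of the same superfamily. Of 11 such genes tested, 0 were called by edgeR after adjustment, and for treated over saline 1 was higher and 3 were lower at an unadjusted p under 0.05, beside 4.8% and 8.29% of all genes. With saline tumor 3 left out, 1 was higher (Prph) and 1 lower (Gfap), beside 4.4% and 4.87% of all genes. Prph, peripherin of peripheral neurons, had the smallest p. It was at 0.515, 0.0953 and 0.229 CPM with saline, 0.727, 4.70 and 3.57 CPM with i.v. TLZ, and 0.963, 0.600 and 1.24 CPM with NanoTLZ. All treated tumors lay above all saline tumors, with a log2 fold change of 2.58 (SE 0.77, edgeR adjusted p = 0.284) and of 2.49 without saline tumor 3. Des, desmin of muscle, was lower at -2.13 (edgeR adjusted p = 0.284), stood at -1.27 without saline tumor 3 (edgeR adjusted p = 0.576) and is also a muscle marker that was highest, at 45.2 CPM, in saline tumor 3.

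Vim, the vimentin of mesenchymal cells, was at 326 to 774 CPM over the 9 tumors, and its groups overlapped. Gfap, the astrocyte filament that myoepithelial cells can also express, was at 25.9, 10.9 and 0.413 CPM with saline and 1.76 to 6.6 CPM in the treated tumors. Its log2 fold change of treated over saline was -1.89 (edgeR adjusted p = 0.381), and it was -2.43 without saline tumor 3. The nuclear lamin Lmnb1 was also lower at -0.81 (edgeR adjusted p = 0.341), and stood at -0.50 without saline tumor 3 (edgeR adjusted p = 0.646).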
